A study of Mus musculus with 12 samples.

Results

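The 10 Wnt genes *Wnt2*, *Wnt2b*, *Wnt3*, *Wnt3a*, *Wnt4*, *Wnt5a*, *Wnt5b*, *Wnt6*, *Wnt8a* and *Wnt11* were followed across 12 bulk RNA-seq libraries of mouse gastruloids. They were taken by gene symbol, a rule that uses no measured value, from a list drawn up with earlier results of these data known, and make up 10 of the 19 Wnt genes and of the 55141 genes in the count table. Gastruloids are aggregates of mouse embryonic stem cells that break symmetry and elongate in culture, and here all were grown from 129/SVEV cells and given a day-long pulse of CHIR99021, an inhibitor of GSK3 that activates β-catenin signaling downstream of the Wnt receptors. They were embedded in a dextran-based hydrogel at 72 h or at 96 h after seeding, at a gel concentration of 1.0 mM or, for a stiffer gel, 1.5 mM, and all were collected at 120 h. Each of the 4 groups held 3 libraries, each from a pool of gastruloids, so a library averages over many gastruloids and over all their cell types. As every group was pulsed with CHIR99021, embedded and released from the gel with dextranase, none of these steps was compared here.

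Wnt proteins are secreted, lipid-modified glycoproteins that bind Frizzled receptors on nearby cells. With the co-receptors Lrp5 and Lrp6 they stabilize β-catenin, which acts in the nucleus with TCF/LEF factors, and through Ror and Ryk receptors and planar cell polarity proteins they steer cell shape and movement. In the mouse embryo *Wnt3*, *Wnt3a* and *Wnt8a* are known from the primitive streak and tail bud, *Wnt5a* and *Wnt11* from axis elongation and cell polarity, and *Wnt2*, *Wnt2b* and *Wnt11* from the heart field and the tissue around it.

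Total counts ran from 23011791 to 27609422 per library, with a mean of 24329500 after embedding at 72 h and 26437400 after embedding at 96 h. Among the 1.5 mM libraries embedded at 72 h, replicate 1 stood apart. The chi-square per degree of freedom between its counts and those of the other 2 libraries was 74.6 and 125, against 17.2 between those 2, and the ligands' results that rest on it are given with and without it. To a lesser degree replicate 2 of the 1.5 mM libraries embedded at 96 h stood apart as well, at 35.1 and 52 against 13.8. Markers of cardiac and anterior mesoderm, somites, endothelium, endoderm and tail bud were present in the libraries, with *Cdx4* near 0 among the tail bud markers. Levels are given as CPM, counts scaled to each library's total with a TMM correction, for a gene followed across libraries, and as the authors' FPKM, which corrects for transcript length, where genes are set against each other.

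*Wnt5a* was by far the most abundant Wnt transcript. Its mean over the 12 libraries was 8.73 FPKM ± 1.82 (SD, n = 12), which was 46.8% of the summed mean FPKM of the 19 Wnt genes, and it lay above every other Wnt gene in mean and above *Wnt2*, the next in order, in 12 of 12 libraries. *Wnt2* followed at 2.72 FPKM ± 2.32 and *Wnt5b* at 1.93 ± 0.289. These 2 could not be ordered, since *Wnt2* was the higher in 6 of 12 libraries, and the SD of *Wnt2* was of the size of its mean. *Wnt5b* was above *Wnt11* (1.09 FPKM ± 0.335) in 12 of 12 libraries. *Wnt11*, *Wnt16* (1.00 ± 0.460, no member of the list) and *Wnt3* (0.891 ± 0.378) could not be separated, each being above the next in 7 of 12 libraries. Further down came *Wnt4* at 0.571 ± 0.0928 FPKM, *Wnt8a* at 0.316 ± 0.225, *Wnt6* at 0.124 ± 0.0627 and *Wnt2b* at 0.0750 ± 0.0616. *Wnt3a*, a ligand of the tail bud, was close to absent: it had 24 counts in all 12 libraries together, between 0 and 9 per library and 0 in 3 of them, and a mean of 0.0206 FPKM.

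**Figure D1:**
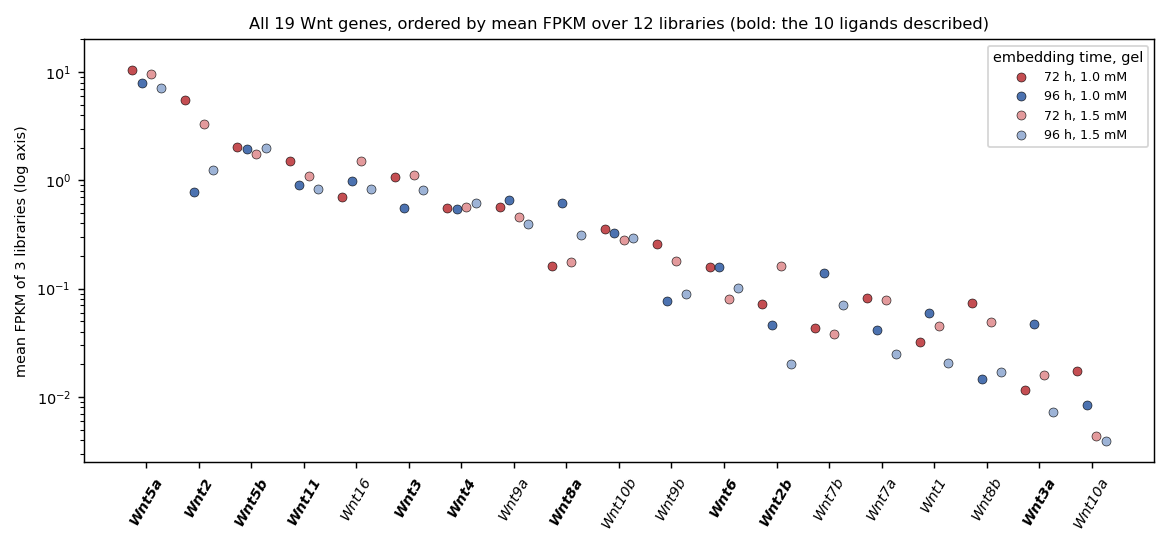
Mean FPKM of each of the 19 Wnt genes in each group (points, 3 libraries each, colored by embedding time and gel) on a log axis, with genes ordered by their mean over 12 libraries. *Wnt5a* leads in all groups, while *Wnt2* lies between 0.784 FPKM (embedded at 96 h, 1.0 mM) and 5.52 FPKM (embedded at 72 h, 1.0 mM).

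Summed over the 19 Wnt genes, the level was 23.7 FPKM ± 4.11 (SD, n = 3, 1.0 mM) and 20.4 ± 1.88 (1.5 mM) after embedding at 72 h, and 15.9 ± 1.83 (1.0 mM) and 14.7 ± 1.98 (1.5 mM) after embedding at 96 h. The makeup of that sum differed mostly in *Wnt2*. *Wnt2* took 19.2% to 28.6% of the sum in the 1.0 mM libraries embedded at 72 h and 10.5% to 23.8% in the 1.5 mM libraries of that time. After embedding at 96 h it took 1.25% to 7.93% in 1.0 mM gels and 6.78% to 9.46% in 1.5 mM gels, so its share in every library embedded at 72 h was above that in every library embedded at 96 h. The share of *Wnt5a* stayed between 42.2% and 53.1% in all 12 libraries.

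The first question was whether ligand expression at 120 h depended on when the gastruloids were confined. In 1.0 mM gels, *Wnt2* rose and *Wnt8a* fell with embedding at 72 h against 96 h. *Wnt2* and *Wnt2b* rose in 1.5 mM gels. With both gels in a single fit, *Wnt2*, *Wnt2b*, *Wnt5a* and *Wnt11* rose and *Wnt8a* fell, whereas *Wnt3*, *Wnt4*, *Wnt5b* and *Wnt6* did not pass the test. A positive log2 fold change means a higher level after embedding at 72 h, and a gene was called at an adjusted p below 0.05 in edgeR's quasi-likelihood test with Benjamini-Hochberg adjustment over all genes tested.

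**Figure D2:**
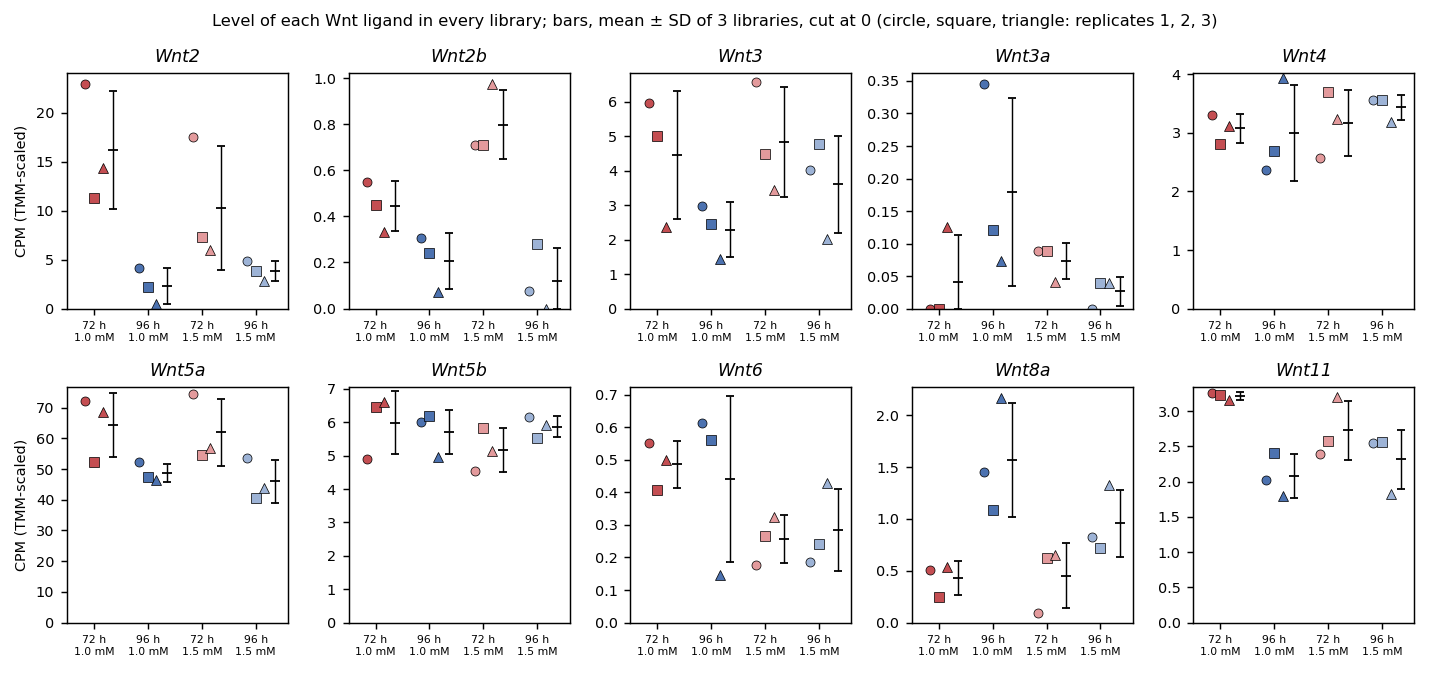
CPM of each of the 10 ligands in every library, by group, with replicates 1, 2 and 3 as circles, squares and triangles, and bars showing the mean ± SD of 3 libraries. *Wnt2* and *Wnt2b* lie higher, and *Wnt8a* lower, in all 6 libraries embedded at 72 h than in all 6 embedded at 96 h. *Wnt7a*, outside the list and not shown, was separated too. The share of all genes separated in this way was not counted. Within a gel the embedding times did not overlap for 28.4% (1.0 mM) and 39.9% (1.5 mM) of all genes tested.

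*Wnt2*, a ligand known from the second heart field, the lung-forming region and early endothelium, changed most among the abundant ligands (chr6:17988940-18030585, mm10, minus strand). In 1.0 mM gels it stood at 22.9, 11.3 and 14.4 CPM after embedding at 72 h and at 4.14, 2.21 and 0.514 CPM after embedding at 96 h. At 1.5 mM the values were 17.5, 7.34 and 5.96 CPM after embedding at 72 h, and 4.91, 3.85 and 2.80 CPM after embedding at 96 h. Neither gel showed overlap between the embedding times, and replicate 1 was the highest library in each of the 4 groups. The fitted log2 fold change was 2.83 ± 0.478 (SE) in 1.0 mM gels (7.13-fold, adjusted p = 0.00398, edgeR) and 1.40 ± 0.389 in 1.5 mM gels (2.65-fold, adjusted p = 0.0347). In 1.0 mM gels the call held in all 17 alternatives. The call in 1.5 mM gels was less firm: without replicate 1 embedded at 72 h the log2 fold change was 0.775 (adjusted p = 0.0298), and without replicate 1, 2 or 3 embedded at 96 h the adjusted p was 0.0550, 0.102 and 0.122. The 2 fold changes were not shown to differ, as the interaction of embedding time and gel was −1.42 ± 0.711 (adjusted p = 0.953, edgeR), and −2.07 ± 0.647 (adjusted p = 0.286) without replicate 1 of the 72 h, 1.5 mM group.

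Upstream of the RefSeq start of *Wnt2* (minus strand of chromosome 6), the 250 bases held 2 copies of GATAA, the core bound by GATA factors, read on either strand. They are shown because transcripts of the GATA factor gene *Gata4* moved with *Wnt2*, with the core in capitals as its reverse complement and 7 bases on either side where the window allowed. The cores end 35 and 4 bases before the start, at chr6:18030474-18030492 and chr6:18030446-18030461 (GRCm38.p6, minus strand, 5′ to 3′).
Wnt2 distal site: ctgccctTTATCgctcgct
Wnt2 proximal site: tgaaactTTATCagtg
GATAA on either strand is common, since 22.6% of 32851 RefSeq windows of this length held it. The GENCODE vM21 gene model starts 140 bases further upstream, so both sites are inside that model. A match describes letters only, and binding was not measured.

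Cardiac and anterior mesoderm transcripts moved with *Wnt2*. Of 10 markers, 9 (1.0 mM) and 6 (1.5 mM) were called higher after embedding at 72 h, against 5.97% and 10.4% of all genes tested called higher in these comparisons, and all 10 had a mean of at least 1 CPM. Among them *Tbx20* and *Gata4*, factors of heart development, had log2 fold changes of 2.82 and 2.57 in 1.0 mM gels and of 1.40 and 1.36 in 1.5 mM gels, and *Nkx2-5*, another, had 2.53 in 1.0 mM gels and was called higher in 1.5 mM gels as well. Without replicate 1 of the 72 h, 1.5 mM group the same number of markers, 6, was called at 1.5 mM, with *Tbx20* at 0.93 and *Gata4* at 1.06. The summed level of the 10 markers was 592.9 to 1001.8 CPM (1.0 mM) and 494.6 to 885.7 CPM (1.5 mM) after embedding at 72 h, against 96.8 to 242.0 and 242.3 to 404.1 CPM after embedding at 96 h. Per 1000 CPM of these markers, *Wnt2* stood at 19.1 to 22.9 CPM (72 h, 1.0 mM), 11.5 to 19.7 (72 h, 1.5 mM), 5.31 to 17.1 (96 h, 1.0 mM) and 9.53 to 12.9 (96 h, 1.5 mM). This ratio did not overlap between embedding times in 1.0 mM gels and did overlap in 1.5 mM gels. Other marker sums also separated the embedding times. Surface ectoderm markers summed to 204 to 339 CPM after embedding at 72 h and to 118 to 154 CPM after embedding at 96 h, with 3 (1.0 mM) and 2 (1.5 mM) of 4 tested called higher. *Krt8* and *Krt18*, at means of 120 and 76.2 CPM, made up most of that sum, while *Trp63* and *Krt5* were near 0. *Grhl2* had −0.54 at 1.5 mM and was not called, and without replicate 1 embedded at 72 h it was called lower (−0.89). Neural tube markers summed to 100.3 to 131 CPM and to 67.3 to 94.7 CPM, with 2 called higher and 1 lower at 1.0 mM and 1 higher at 1.5 mM. *Irx3*, at a mean of 75.2 CPM, made up most of that sum. The lower call was *Olig2*, at a mean of 0.0139 CPM after embedding at 72 h and 0.704 CPM after embedding at 96 h. It passed the low-count filter there only through libraries embedded at 96 h, and 3.27% of all genes tested were called lower at 1.0 mM. The members of this list split. Their median log2 fold change was −0.71 at 1.0 mM, with *Olig2* included, and −0.0036 at 1.5 mM, where *Olig2* was not tested. Of 6 endothelium markers, 1 was called higher at 1.0 mM and 1 lower at 1.5 mM, with a median log2 fold change of −0.23 and −0.48. At 1.5 mM 8.98% of all genes tested were called lower. Without replicate 1 embedded at 72 h, 4 of these markers were called lower at 1.5 mM (12% of all genes), with a median of −0.73. In bulk RNA, more cells of a type and more RNA per cell cannot be told apart, and the part of any of these cells in the level of *Wnt2* was not tested.

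The genes most like *Wnt2* across the 12 libraries, by the root mean square difference of centered log2 CPM among the 11343 genes averaging 100 counts or more, were *Myl4* (0.316), *Nkx2-5* (0.357) and *Hand2os1* (0.370), against 1.40 for the deviation of *Wnt2* from its own mean. *Myl4* encodes an atrial myosin light chain and *Hand2os1* is a transcript beside the heart regulator *Hand2*. *Myl4* averaged 27.3 CPM (72 h, 1.0 mM), 14.5 (72 h, 1.5 mM), 4.68 (96 h, 1.0 mM) and 7.72 (96 h, 1.5 mM). It shared the order of groups with *Wnt2*, which its selection for a like profile in these same libraries made likely beforehand. The likeness describes these libraries only, which fall into 2 embedding times.

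**Figure D3:**
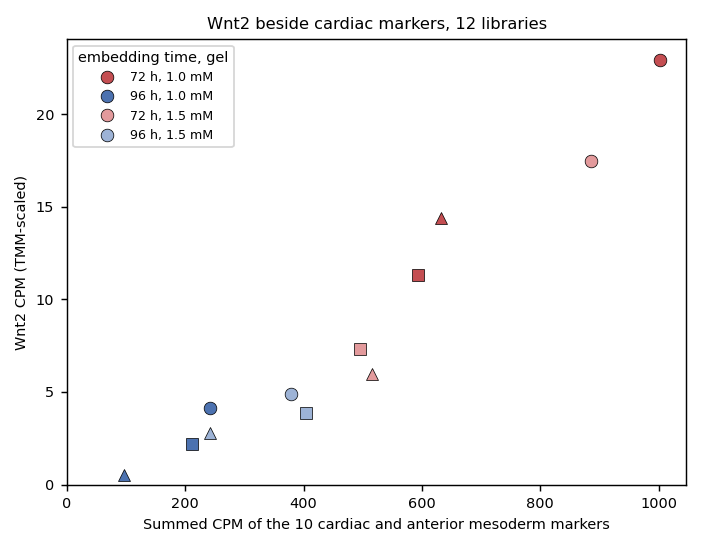
*Wnt2* in CPM (y axis) against the summed CPM of 10 cardiac and anterior mesoderm markers (x axis) in each of the 12 libraries, with replicates 1, 2 and 3 as circles, squares and triangles. The libraries embedded at 96 h lie at or below 4.91 CPM of *Wnt2* and 404.1 CPM of markers, and those embedded at 72 h lie above both.

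*Wnt2b*, the close paralog of *Wnt2*, was scarce and had few counts behind its values (chr3:104945272-104961921, mm10, minus strand). In 1.0 mM gels it had 13, 11 and 8 counts after embedding at 72 h and 8, 6 and 2 after embedding at 96 h. The 1.5 mM libraries had 16, 16 and 24 counts against 2, 7 and 0. On the CPM scale the 6 libraries embedded at 72 h held 0.333 to 0.973 (median 0.630) and those embedded at 96 h held 0 to 0.306 (median 0.158), with no overlap. The log2 fold change in 1.5 mM gels was 2.72 ± 0.652 (6.59-fold, adjusted p = 0.0205, edgeR), a value that includes a library at 0. That call was lost without replicate 3 embedded at 72 h (adjusted p = 0.0732), without replicate 1 embedded at 96 h (0.0689) and without replicate 3 embedded at 96 h (0.0530), and without replicate 2 embedded at 96 h the log2 fold change was 4.22. Without replicate 1 embedded at 72 h it was 2.80. In 1.0 mM gels its counts were below the filter, and without the filter the fitted log2 fold change was 1.10, given with no test. At 1.5 mM and over both gels *Wnt2b* passed the low-count filter only through libraries embedded at 72 h. Its calls there are therefore not independent of its level in those libraries. Over both gels *Wnt2b* had a log2 fold change of 1.88 ± 0.465 (adjusted p = 0.00697, edgeR), a call kept in all 19 alternatives that gave a value. The genes most like it were *Chrnb4* (0.581), *Amhr2* (0.586) and *Kcnj5* (0.589), against 1.06 for its own deviation, so the likeness was looser than for *Wnt2*.

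*Wnt8a*, a ligand of the primitive streak and tail bud, moved the other way. In 1.0 mM gels it stood at 0.508, 0.245 and 0.541 CPM (12, 6 and 13 counts) after embedding at 72 h and at 1.46, 1.08 and 2.17 CPM (38, 27 and 59 counts) after embedding at 96 h. The 1.5 mM libraries stood at 0.0888, 0.623 and 0.648 CPM (2, 14 and 16 counts) and at 0.824, 0.722 and 1.32 CPM (22, 18 and 34 counts). No overlap between embedding times was seen, although the highest library embedded at 72 h and the lowest embedded at 96 h in 1.5 mM gels lay close together. At 1.0 mM *Wnt8a* fell by 1.85 ± 0.392 on the log2 scale (3.61-fold lower, adjusted p = 0.0132, edgeR), a call lost without replicate 3 embedded at 96 h (−1.55, adjusted p = 0.0705). Its log2 fold change in 1.5 mM gels was −1.06 ± 0.525 (adjusted p = 0.181) and did not pass. It was −0.593 there without replicate 1 embedded at 72 h, the library with 2 counts. Over both gels it was −1.48 ± 0.352 (adjusted p = 0.00566), and all 22 alternatives called it. Within each gel the libraries embedded at 72 h alone would not have taken *Wnt8a* through the low-count filter. Its call at 1.0 mM is therefore not independent of its level in the libraries embedded at 96 h.

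Transcripts of somites and of pluripotent cells were lower beside *Wnt8a*. After embedding at 72 h, all 8 somite markers (1.0 mM) and 6 of 8 (1.5 mM) were called lower, and 5 of 6 pluripotency markers in each gel, where 3.27% and 8.98% of all genes tested were called lower. Summed somite markers stood at 345 to 687 CPM after embedding at 72 h and at 838 to 1165 CPM after embedding at 96 h. Summed pluripotency markers stood at 29.9 to 41.6 CPM and at 81.7 to 139.6 CPM. None of the 14 markers was at 0 in a library. The tail bud markers, summed, went the other way (268 to 379.9 CPM after embedding at 72 h, 145 to 227 CPM after embedding at 96 h), but the members of that list split. *T*, the most abundant, and *Cyp26a1* were called higher in both gels, *Sox2* was called lower in both (−0.58 and −0.42), and *Nkx1-2* was called lower in 1.0 mM gels (−2.29, adjusted p = 0.00195). The list's median log2 fold change was −0.08 in 1.0 mM gels and 0.06 in 1.5 mM gels. The part of these cells in the level of *Wnt8a* was not tested. The genes most like *Wnt8a* were *Cabp7* (0.324), *Sim1* (0.385) and *Ism1* (0.439), against 0.963 for its own deviation.

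*Wnt5a*, which signals mostly through Ror receptors and cell polarity proteins, was higher after embedding at 72 h by a small and even amount (chr14:28504750-28527448, mm10, plus strand, with the antisense gene *Gm2670* on the other strand). It stood at 72.0, 52.4 and 68.7 CPM after embedding at 72 h and at 52.2, 47.5 and 46.6 CPM after embedding at 96 h in 1.0 mM gels. At 1.5 mM it stood at 74.6, 54.6 and 56.9 CPM and at 53.8, 40.5 and 43.7 CPM. The embedding times did not overlap within a gel, yet the nearest libraries differed by little. Log2 fold changes were 0.41 ± 0.117 (95% interval 0.15 to 0.66, adjusted p = 0.0535) in 1.0 mM gels and 0.43 ± 0.137 (0.12 to 0.73, adjusted p = 0.0566) in 1.5 mM gels, which both missed the threshold. With the replicate numbers as a block, which may pair the libraries in 1.5 mM gels, the latter was 0.42 and passed (adjusted p = 0.00267, edgeR). Without that block and without replicate 1 embedded at 72 h it was 0.27 (adjusted p = 0.0909). Over both gels *Wnt5a* rose 1.33-fold, a log2 fold change of 0.42 ± 0.0958 (adjusted p = 0.00454) that all 22 alternatives called. At 1009 to 1701 counts per library, *Wnt5a* had the smallest SE of the members tested in each gel and over both.

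*Wnt11*, a ligand of convergent extension and of early heart tissue, stood at 3.26, 3.22 and 3.16 CPM after embedding at 72 h and at 2.03, 2.41 and 1.80 CPM after embedding at 96 h in 1.0 mM gels, without overlap (log2 fold change 0.63 ± 0.210, adjusted p = 0.0902). At 1.5 mM it stood at 2.40, 2.58 and 3.20 CPM and at 2.55, 2.57 and 1.83 CPM, and the embedding times overlapped (0.23 ± 0.221, adjusted p = 0.490, and 0.32 without replicate 1 embedded at 72 h). Over both gels it rose by 0.43 ± 0.146 on the log2 scale (1.35-fold, adjusted p = 0.0345). That call stood near the threshold, with adjusted p between 0.0261 and 0.0778 over 22 alternatives, and it was lost in 7 of the 12 fits that leave out a library: of the 1.0 mM libraries, any of the 3 of the earlier time and replicates 1 and 3 of the later, and of the 1.5 mM libraries, replicate 3 of either time. Its window upstream of the first of 2 RefSeq starts carried the only TCF/LEF core (CTTTGA on either strand, held by 13.8% of all windows) among the windows of the ligands that rose and have one, and is shown for that reason, with the core in capitals as its reverse complement, ending 44 bases before the start (chr7:98834862-98835111, GRCm38.p6, plus strand).
Wnt11: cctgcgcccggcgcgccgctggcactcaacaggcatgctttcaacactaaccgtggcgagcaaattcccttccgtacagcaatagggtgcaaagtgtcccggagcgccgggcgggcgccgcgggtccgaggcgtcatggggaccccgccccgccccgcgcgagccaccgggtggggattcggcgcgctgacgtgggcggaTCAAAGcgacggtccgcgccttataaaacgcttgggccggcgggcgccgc
Of the 8 ligands whose RefSeq windows were read, *Wnt5b* alone shared this core, upstream of 1 of its 3 starts, and its level did not pass any test. Windows of *Wnt5a* and *Wnt8a* were not read. The GC content of the 11 windows was 53.2% to 87.6%, against a median of 52.4% over all windows.

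*Wnt3*, which is required for the primitive streak, stood at 5.97, 5.02 and 2.37 CPM after embedding at 72 h and at 2.99, 2.45 and 1.43 CPM after embedding at 96 h in 1.0 mM gels. At 1.5 mM it stood at 6.57, 4.49 and 3.44 CPM and at 4.01, 4.77 and 2.02 CPM. Embedding times overlapped in both gels, and replicate 3 was the lowest library of each group. The log2 fold change was 0.97 ± 0.347 (95% interval 0.20 to 1.73, adjusted p = 0.117) in 1.0 mM gels, 0.42 ± 0.326 in 1.5 mM gels (adjusted p = 0.395, and 0.13 without replicate 1 embedded at 72 h) and 0.68 ± 0.267 (adjusted p = 0.0634) over both, where 6 of 22 alternatives called it. *Wnt3* lies 24.3 kb from *Wnt9b* on chromosome 11, on the opposite strand, and *Wnt9b*, no member of the list, was called over both gels at 1.38 ± 0.393 (adjusted p = 0.0150, 3 to 61 counts per library). It was the sole call among the other 9 Wnt genes in any comparison, of which 4 were tested over both gels. Of all genes tested there, 16.2% were called higher.

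*Wnt4*, *Wnt5b* and *Wnt6* did not pass in any comparison. *Wnt4*, a ligand of the kidney and gonads, ranged from 2.37 to 3.93 CPM, and its log2 fold change over both gels was −0.041 with a 95% interval of −0.35 to 0.26. *Wnt5b*, a paralog of *Wnt5a*, ranged from 4.53 to 6.61 CPM, with −0.056 (−0.30 to 0.19). These intervals leave out a change as large as that of *Wnt2* in either direction. *Wnt5b* overlaps *Fbxl14* on the opposite strand, and the strand setting of the counts is not given in the sources used here. *Wnt6*, an epithelial ligand, had 4 to 16 counts per library, and its interval of −0.71 to 0.77 was wide. *Wnt3a* was below the filter in every comparison.

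Counted together, 1 member was called higher and 1 lower of 8 tested in 1.0 mM gels, where 5.97% of all genes tested were called higher and 3.27% lower. In 1.5 mM gels, 2 were called higher and 0 lower of 8 tested, beside 10.4% and 8.98%. Over both gels, 4 were called higher and 1 lower of 9 tested, beside 16.2% and 14.8%. *Wnt2b*, called higher at 1.5 mM and over both gels, passed the filter there only through libraries embedded at 72 h. *Wnt8a*, called lower at 1.0 mM, would not have passed it there on the libraries embedded at 72 h alone. All 4 calls within a gel also had an absolute log2 fold change above 1, as had 4.3% (1.0 mM) and 3.18% (1.5 mM) of all genes. Over both gels 3 members passed this stricter rule (*Wnt2*, *Wnt2b* and *Wnt8a*), beside 4.66% of all genes. The median log2 fold change of the members tested was 0.28 in 1.0 mM gels, 0.33 in 1.5 mM gels and 0.42 over both, and that of all genes tested was −0.0054, −0.0052 and −0.0072. Without replicate 1 of the 72 h, 1.5 mM group the members' median at 1.5 mM was 0.20, the calls there stayed with *Wnt2* and *Wnt2b*, and over both gels the calls stayed with *Wnt2* (1.92), *Wnt2b* (1.87), *Wnt5a* (0.34), *Wnt8a* (−1.3) and *Wnt11* (0.49). The embedding times did not overlap for 4 of 8 members tested in each gel, but this also held for 28.4% (1.0 mM) and 39.9% (1.5 mM) of all genes.

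**Figure D4:**
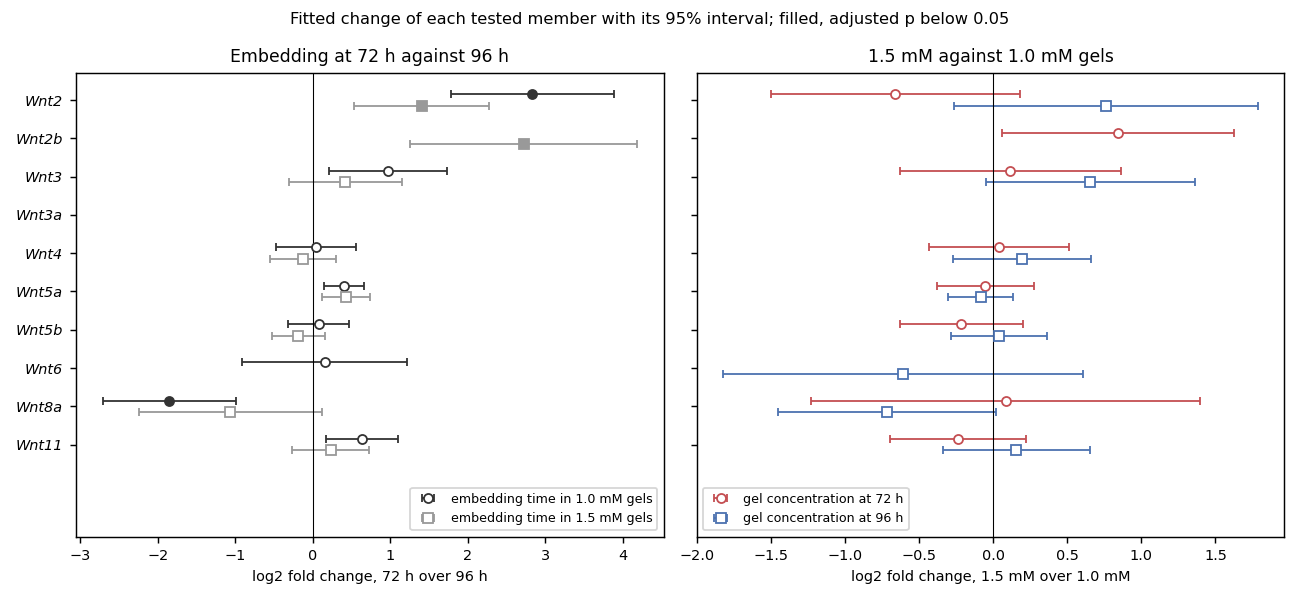
Fitted log2 fold changes of the tested members with 95% intervals (bars), for 72 h over 96 h embedding (left; circles 1.0 mM, squares 1.5 mM) and for 1.5 mM over 1.0 mM gels (right; circles 72 h, squares 96 h), with filled symbols for an adjusted p below 0.05. Of all fitted values, those of *Wnt2* (2.83 and 1.40), *Wnt2b* (2.72) and *Wnt8a* (−1.85) on the left are filled, and none on the right.

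The second question was whether the gel concentration mattered. No member was called between 1.5 mM and 1.0 mM gels after embedding at 72 h (0 of 8), after embedding at 96 h (0 of 8) or over both (0 of 9) by edgeR's quasi-likelihood test. The whole genome gave few calls as well, with 0% of genes called at 72 h, 0% at 96 h and 0.0305% over both, although 1074 genes at 72 h and 1578 at 96 h had an unadjusted p below 0.05. DESeq2 and limma-voom also called 0 members in these comparisons. The intervals differ in what they leave out. For *Wnt5a* they were narrow, at −0.05 (−0.38 to 0.27) after embedding at 72 h and −0.085 (−0.30 to 0.14) after embedding at 96 h. For *Wnt2* they were wide, at −0.66 (−1.5 to 0.18) and 0.76 (−0.27 to 1.79), with opposite signs. Without replicate 1 of the 1.5 mM libraries the value at 72 h was −1.3 ± 0.290 (adjusted p = 0.10), that of *Wnt5a* was −0.22 and that of *Wnt2b* 0.91, and 0 members were called. Without the low-count filter *Wnt2* was called in both, with adjusted p of 0.00585 and 0.0412. *Wnt2b* at 72 h had a log2 fold change of 0.84 ± 0.353 (adjusted p = 0.704, edgeR), with 0.710, 0.712 and 0.973 CPM in 1.5 mM gels and 0.550, 0.449 and 0.333 CPM in 1.0 mM gels. It was the sole tested member whose gels did not overlap at 72 h, which held for 11.1% of all genes, and there was none at 96 h (15.6% of all genes). *Wnt8a* at 96 h had −0.72 ± 0.337 (adjusted p = 0.510).

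Nor was an effect of embedding time shown to differ between the gels. No member was called for the interaction (0 of 9, and 0% of all genes, with 708 genes at an unadjusted p below 0.05), and DESeq2 and limma-voom called 0 members. Without the low-count filter *Wnt2* was called.

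Around the ligands, genes of the pathway were set beside them from lists of 87 genes. Of the 77 tested in both gels, 14 were called in both, each in the same direction, beside 5.56% of the 15426 genes tested in both. Without replicate 1 of the 72 h, 1.5 mM group every pathway gene called at 1.5 mM was still called, and *Rspo1*, *Apc*, *Apc2*, *Gsk3a* and *Axin2* were called as well, where 13.5% of all genes were called higher and 12% lower. *Wls*, the carrier that brings Wnt proteins to the cell surface, rose in both gels, by 0.68 ± 0.0842 in 1.0 mM and 0.67 ± 0.0733 in 1.5 mM gels (adjusted p = 0.000741 and 0.00147, edgeR). Of the 3 secretion genes it was the sole call in 1.0 mM gels, and *Tmed5* (0.38) joined it in 1.5 mM gels. *Porcn*, which attaches the lipid, was not called.

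Among 10 Frizzled receptors, 2 rose and 2 fell in 1.0 mM gels (all genes 5.97% and 3.27%) and 4 rose in 1.5 mM gels (all genes 10.4%, with 8.98% lower). *Fzd5* (0.82 and 0.86) and *Fzd3* (0.44 and 0.62) rose in both gels, *Fzd8* (−0.55) and *Fzd10* (−0.52) fell in 1.0 mM gels, and *Fzd1* (0.41) and *Fzd7* (0.29) rose in 1.5 mM gels. Of the other receptors, *Ror1*, a receptor for Wnt5a, rose by 0.72 ± 0.115 and 0.83 ± 0.109, and *Lrp5* (0.20) and *Lrp6* (0.29) rose in 1.5 mM gels, with 6 genes tested. Of the planar cell polarity genes, 3 of 13 rose in 1.0 mM gels and 6 of 13 in 1.5 mM gels, with none lower, beside 5.97% and 10.4% of all genes called higher. *Vangl1* (0.50 and 0.50), *Celsr2* (0.47 and 0.44) and *Fzd3*, counted in this list as well, were called in both gels. The median of that list was 0.34 and 0.37, beside −0.0054 and −0.0052 for all genes.

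Of 14 secreted antagonists tested, 6 rose and 1 fell in 1.0 mM gels (all genes 5.97% and 3.27%), and 5 rose and 1 fell in 1.5 mM gels (10.4% and 8.98%). *Sfrp5*, which binds Wnt proteins and is known from the foregut and heart inflow region, rose by 2.63 ± 0.302 and 1.77 ± 0.393 on the log2 scale, the latter being 1.13 without replicate 1 embedded at 72 h. *Wif1* (1.65) and *Dkk1* (1.21), a Wnt-binding protein and an Lrp6 antagonist, rose in 1.0 mM gels, and *Cer1* (1.70) in 1.5 mM gels. *Frzb* (0.86 and 0.82), *Sfrp1* (0.68 and 0.96) and *Trabd2b* (0.53 and 0.50) rose in both gels, whereas *Draxin* (−0.99 and −0.86) fell in both. *Lgr5*, the R-spondin receptor and itself a β-catenin target, rose by 0.90 and 1.35, and *Rspo3* (0.40) rose in 1.5 mM gels.

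The β-catenin core and its targets showed no common direction. Of 18 core components, *Bcl9l* (0.32) was the sole call in 1.0 mM gels, and *Gsk3b* (0.35) and *Dvl1* (−0.53) were called in 1.5 mM gels. Of 15 target and feedback genes tested in 1.0 mM gels, 1 rose and 3 fell, and of 14 in 1.5 mM gels, 3 rose and 1 fell, where 5.97% and 3.27% of all genes (1.0 mM) and 10.4% and 8.98% (1.5 mM) were called higher and lower. *T* (Brachyury), a target in the streak and tail bud, rose by 1.17 ± 0.141 and 1.42 ± 0.0974, and *Myc* fell by 1.31 ± 0.112 and 1.18 ± 0.143. *Cdx1* (−2.01) and *Nkd2* (−0.73) fell in 1.0 mM gels, and *Sp8* (0.77) and *Ccnd1* (0.33) rose in 1.5 mM gels. The median of the targets was −0.07 in 1.0 mM and −0.0070 in 1.5 mM gels, beside the medians of all genes given above. None of the pathway lists had a call between gel concentrations.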

How the data were processed

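Bulk RNA-seq of 12 libraries, with the 4 groups and replicate numbers taken from the labels, was analysed. The authors trimmed reads from stranded poly-A libraries with cutadapt 4.4, aligned them to mm10 with STAR 2.7.10b and gene models from Ensembl, and deposited a table of raw counts. The strand setting of the counts is not given in the sources used here. They computed FPKM with Cufflinks 2.2.1.3 and deposited the values as well. A deposited table of their own DESeq2 comparisons was not used.

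Counts were normalized with TMM after leaving out 36 mitochondrial genes, filtered with filterByExpr (minimum count 10, minimum total 15) and fitted with edgeR 4.0.16 (glmQLFit, glmQLFTest, R 4.3.3). Pairwise comparisons used 6 libraries, and those over both gels or times 12. SE is the log2 fold change over the square root of F. Totals per library bound the precision given with each value, and intervals do not cover other sources of error. Scripts were tested on simulated data. Alternatives included DESeq2 1.42.0, limma 3.58.1 (voom, and trend on log2 FPKM with pseudocounts 1 and 0.1), other filters and each library left out.

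The members, pathway lists and markers were chosen with earlier results of these data known. The rule named all 10 members, other Wnt genes that were called, 3 genes most alike each called member and, per pathway list, up to 4 called genes. Other pathway genes were named after their values were seen. Replicates are biological by the study's methods. Pairing by replicate number was read from the data only, and the main tests used no replicate block. Deviations of same-numbered libraries correlated at 0.195, 0.103 and 0.215 between embedding times in 1.5 mM gels. Between gels at 72 h they correlated at 0.165, 0.192 and 0.0666. The values were 0.331, 0.148 and 0.0536 between embedding times in 1.0 mM gels, and 0.316, 0.117 and 0.0454 between gels at 96 h.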

Additional observations from a re-analysis of the deposited data

How the results depend on the processing

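The number of members called in 1.0 mM gels, 2, became 4 with DESeq2, with no low-count filter and with a replicate block (*Wnt3* and *Wnt5a* added each time), and 1 (*Wnt2*) at an adjusted p below 0.01 and with limma-trend on log2(FPKM + 1) or log2(FPKM + 0.1). In 1.5 mM gels, 2 became 1 with limma-voom (*Wnt2b*) and with the stricter filter (*Wnt2*, as *Wnt2b* was not tested), and 0 at an adjusted p below 0.01 and with limma-trend at either pseudocount. Over both gels, 5 became 3 with the threshold on fold change. Without the low-count filter, 1 member (*Wnt2*) was called between gels at 72 h, between gels at 96 h and for the interaction, in place of 0. The cause of these differences was not tested. Leaving out each library in turn gave 1 to 3 calls in 1.0 mM gels, 0 to 2 in 1.5 mM gels (1 and 0, the lowest, each without replicate 3 embedded at 96 h), 4 to 6 over both gels and 0 in the other comparisons.

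With the replicate block, 3 members were called in 1.5 mM gels (*Wnt5a* added), 6 over both gels (*Wnt3* added) and 0 between gels or for the interaction. Libraries of different groups are known to share only a number. Every library correlated best with its own number between embedding times in 1.5 mM gels and between gels at 72 h. That is a hint of pairing from the data and not the design. Between gels at 96 h and embedding times in 1.0 mM gels the hint was less complete. Same-numbered libraries correlated positively there too, but not every library correlated best with its own number.

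Each member was refitted under the alternatives in the 4 pairwise comparisons and for embedding time over both gels, and there signs turned only where no alternative called the member. Between gels at 72 h *Wnt8a* had −0.22 with limma-voom and −0.058 with log2(FPKM + 0.1). At 96 h *Wnt11* had −0.053 and −0.11 with limma-trend at pseudocounts 1 and 0.1, and over both gels *Wnt6* had −0.013 and −0.046. With a library left out, the log2 fold change for embedding time ran from −0.11 to 0.29 (*Wnt4*), −0.021 to 0.20 (*Wnt5b*) and −0.27 to 0.47 (*Wnt6*) in 1.0 mM gels, from −0.24 to 0.0023 in 1.5 mM gels (*Wnt4*), and from −0.11 to 0.055 (*Wnt4*) and −0.21 to 0.19 (*Wnt6*) over both. Between gels at 72 h it ran from −0.19 to 0.38 (*Wnt3*), −0.080 to 0.16 (*Wnt4*), −0.22 to 0.035 (*Wnt5a*) and −0.27 to 0.55 (*Wnt8a*), and at 96 h from −0.057 to 0.10 (*Wnt5b*).

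Depth limits *Wnt2b* and *Wnt3a*, with 0 counts in at least 1 library, and *Wnt8a* and *Wnt6*, with as few as 2 and 4.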
